A study of Rattus norvegicus with 16 samples.

Results

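The 4 hippocampal neuron cultures that received no virus, labelled NO1 to NO4, were described on their own, as 4 of the 16 samples of a study of the membrane protein PRR7 in rat neurons. They were chosen by the label alone, "Not transduced", and no measured value entered the choice. All 16 samples were primary neuron cultures, for which hippocampi were taken at embryonic day 18 to 19 from Sprague-Dawley rats of both sexes. The other 3 groups of 4 cultures carried lentiviruses that knock down PRR7 by an shRNA, overexpress PRR7, or express a nontargeting shRNA, and they were not analysed here. The series' design calls the samples of a group biological replicates. The labels used here give neither the days in culture nor the number of embryos behind each culture. A free-text label field names instead the dentate gyrus, a region within the hippocampus, of an adult, ovariectomised, oil-treated female. It goes against the tissue, stage and protocol fields and was not used.

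Dissociated embryonic hippocampus yields pyramidal-type glutamatergic neurons, GABAergic interneurons, and a varying number of astrocytes, progenitors and other cells that divide or mature in the dish. A neuron's transmitter is set by its synthesis enzymes and by the vesicular transporter that loads its synaptic vesicles. Its response is set by which of several paralogous receptor and channel subunits it expresses, and many of these paralogs are exchanged for one another as the brain matures.

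RNA of each culture was labelled with a cyanine dye and hybridised to a 2-colour Agilent rat array of 60-base oligonucleotide probes. NO1 and NO3 carried Cy3 and NO2 and NO4 carried Cy5, with NO1 and NO2 together on one array and NO3 and NO4 on another. The level given below is the signal of a culture in its own dye after background subtraction, scaled to a common 75th percentile and written on the log2 scale with a floor of 2.00. A probe was called detected when the scanner software flagged it as well above background in every culture that had a value, and a gene was detected through any of its probes. A gene was called not well above background when no probe was flagged in any culture, and genes between these classes are called intermediate. Of 41012 probes, 20112 were detected (49%). Of 16083 genes with a symbol, 9930 were detected (61.7%), 2446 were intermediate (15.2%) and 3707 were not well above background (23%).

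A gene is represented by its brightest probe. Probes differ in how strongly they bind, so the order of genes by signal is an order of probe signals and not of transcript numbers. The median gene had a signal of 8.01, and 1 gene in 10 exceeded 12.8. In bulk samples of mixed cells, fewer cells of a type and less RNA per cell cannot be told apart.

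**Figure D1:**
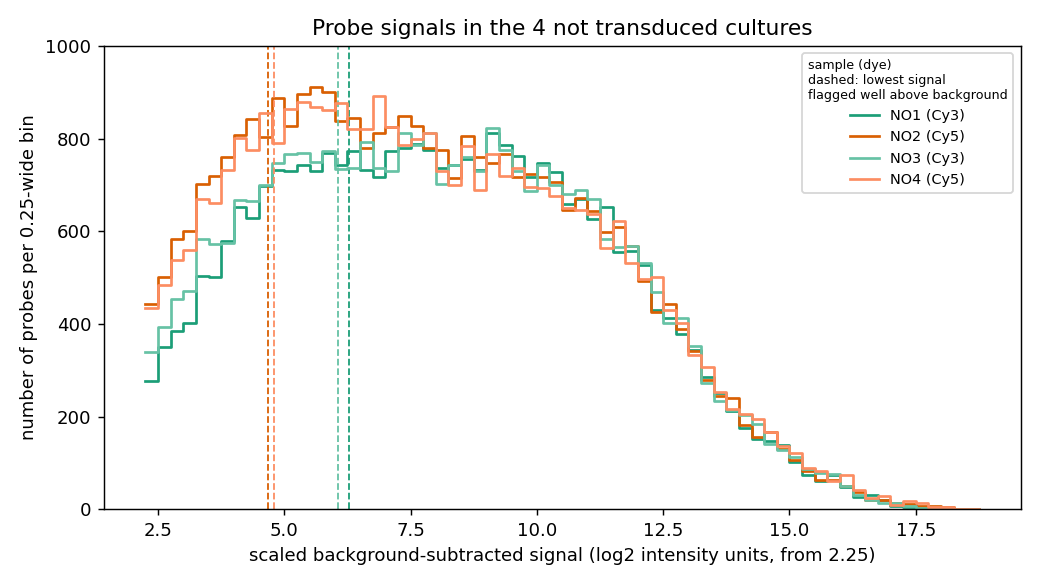
Number of probes per 0.25-wide bin of scaled log2 signal in each of the 4 not transduced cultures, leaving out the bin at the floor. Dashed lines mark the lowest signal flagged well above background, which was 4.69 in NO2 and 4.80 in NO4 (Cy5) and 6.27 in NO1 and 6.06 in NO3 (Cy3).

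The flag was set at a lower scaled signal in the Cy5 cultures than in the Cy3 cultures, as the plot of probe signals shows. Accordingly 65.0% and 63.2% of probes were flagged in NO2 and NO4, against 50.2% and 51.6% in NO1 and NO3. Of 7389 probes flagged in some but not all cultures, 3617 (49.0%) were flagged in both Cy5 cultures and in neither Cy3 culture, and 0 had the opposite pattern. The class of an intermediate gene therefore turns on the dye as well as on the signal. No probe was saturated. Over genes detected by the probe used, the median SD between the 4 cultures was 0.21, and 93.1% of 9271 genes had an SD under 0.5. Pearson's r between cultures across detected genes ran from 0.979 to 0.994.

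Among all genes, the brightest were those of protein turnover, translation, the cytoskeleton and glial lipid transport. Ubb, a polyubiquitin gene, led with 17.80, 18.12, 17.38 and 18.14 in NO1, NO2, NO3 and NO4, the order used for values throughout. Apoe, the main lipid carrier released by astrocytes, followed with 17.54, 17.99, 18.10 and 17.46. Cst3, a secreted protease inhibitor, had 17.29, 17.97, 17.72 and 17.85. The ranges of these 3 genes over the cultures overlapped. Among the next in order were the beta tubulin Tubb5 at 17.53 ± 0.51 (mean ± SD, n = 4 unless stated), the ribosomal protein gene Rps2 at 17.41 ± 0.12 and the actin gene Actb at 17.38 ± 0.47 (n = 2). The later genes of the first 20 spanned only 17.26 ± 0.47 for Rtn1, a reticulon of neuronal endoplasmic reticulum, to 17.05 ± 0.06 (n = 2) for Fth1, a ferritin chain. They were Ap2m1, a clathrin adaptor subunit, Ppial4g, a cyclophilin-type name, Rplp1, Ftl1, Zwint, Actg1, Snrpn, Gapdh, Ywhae, Pebp1 and Cox6a1.

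**Figure D2:**
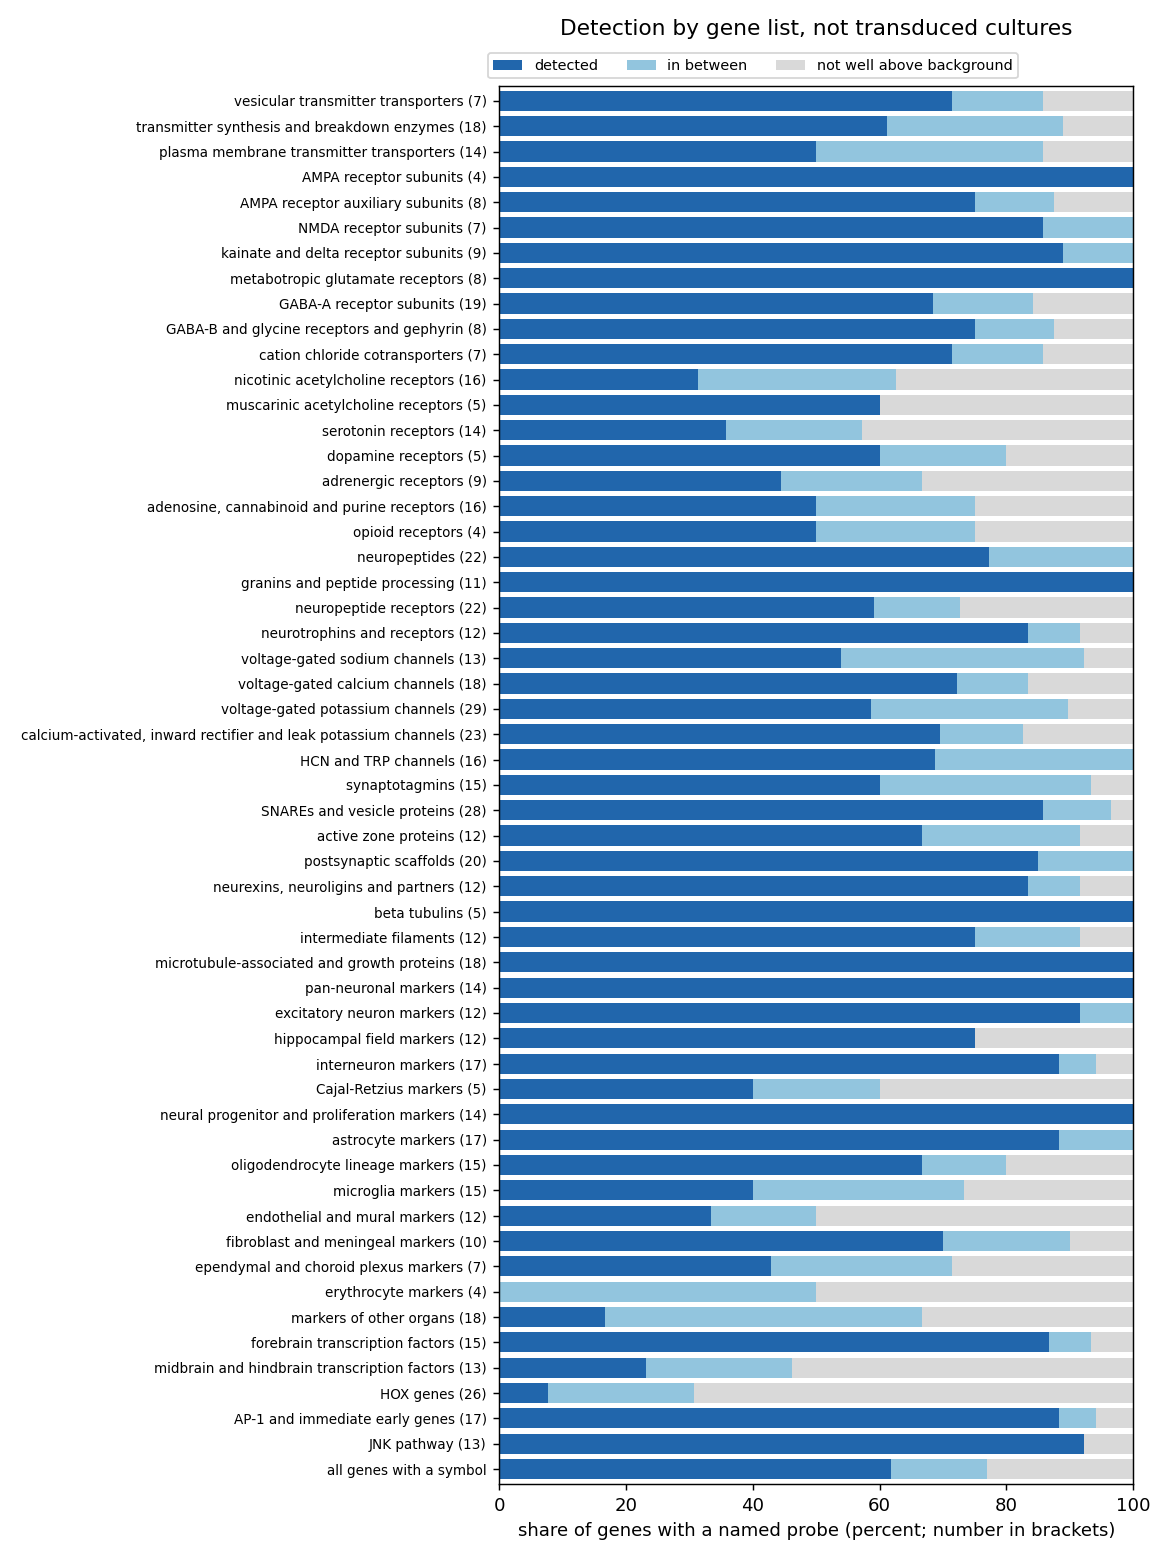
Share of each gene list that was detected, in between (intermediate) or not well above background in the 4 not transduced cultures, with the number of genes measured in brackets. The lists of neuronal, growth and granin genes were detected in full, while the HOX list had 2 of 26 genes detected, against 61.7% of all genes.

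Neuronal genes were detected throughout. All 14 pan-neuronal markers with a named probe were detected, with a median signal of 14.6 against 8.01 over all genes. Stmn2, a tubulin-binding protein of growing neurites, had 16.19, 16.14, 16.39 and 16.97. Snap25, a plasma membrane SNARE of the nerve terminal, had 15.48, 15.43, 15.59 and 15.82. Both had a mean above 15.56, the signal that 1% of genes exceeded, and both were highest in NO4 on these probes, while the other detected probe of Snap25 was highest in NO2, at 13.24. The neuronal RNA-binding protein genes Elavl3, Elavl4 and Elavl2 had 14.38 ± 0.22, 14.06 ± 0.27 and 13.19 ± 0.17, and Thy1, a surface protein that appears late on neurons, was the lowest of the list at 9.85 ± 0.32. All 18 genes for microtubule-associated and growth proteins were detected as well, from 16.96 ± 0.37 for Stmn1 to 10.41 ± 0.32 for Map1a. This list held Gap43, the growth cone protein, at 16.07 ± 0.31, Dcx, a marker of young migrating neurons, at 14.73 ± 0.28, and Mapt, which encodes tau, at 15.35 ± 0.28. All 5 beta tubulins with a named probe were detected, with the neuronal Tubb3 at 15.68 ± 0.23 (n = 2) and Tubb4a lowest at 10.95 ± 0.21. Of the 12 intermediate filament genes, 9 were detected. The neuronal subunits Nefm and Ina had 14.94 ± 0.31 and 14.02 ± 0.38, the progenitor and glial filaments Vim and Nes 13.61 ± 0.33 and 13.11 ± 0.38, and the muscle filament Des only 6.32 ± 0.14, while the epithelial keratin Krt8 was not well above background.

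Of the excitatory neuron markers, 11 of 12 were detected. Nrgn, a calmodulin-binding protein of forebrain dendritic spines, had 15.20, 15.04, 15.53 and 15.55. Neurod6, a transcription factor of pyramidal neurons, had 13.36, 13.29, 13.29 and 13.49. Both differed by less than 0.6 between any of the cultures. Neurod2 had 12.54 ± 0.01 (n = 2) and Fezf2 11.80 ± 0.26, Emx1 was the lowest detected at 7.32 ± 0.28, and Tbr1, a factor of early-born projection neurons, was intermediate through 2 probes, the brighter at 5.20 ± 0.16. Of 12 hippocampal field markers, 9 were detected, from 13.91 ± 0.24 for Mpped1 to 7.73 ± 0.26 for Man1a1. Etv1 had 11.70 ± 0.06, Wfs1, a marker of field CA1, 10.03 ± 0.29, and Calb1, a calcium buffer of granule and some pyramidal cells, 10.12 ± 0.20. Prox1, the transcription factor that marks dentate granule cells, was not well above background, nor were Dsp and Fibcd1. Interneuron markers were detected for 15 of 17 genes, from 14.64 ± 0.20 for Sst to 6.74 ± 0.37 for Sox6. Calb2, which encodes calretinin, had 13.32 ± 0.17, Dlx5 9.94 ± 0.18 and Pvalb, the marker of fast-spiking cells, 7.35 ± 0.24, whereas Lhx6, a factor of the same lineage, was not well above background. Of 5 Cajal-Retzius markers, only Calb2 and Reln were detected, both of which interneurons also express. Reln had 10.92 ± 0.18, and Lhx1 and Lhx5 were not well above background.

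Astrocyte markers were mostly detected, and the measured markers of progenitors and dividing cells were all detected. Of 17 astrocyte markers, 15 were detected, with a median signal of 12.8. After Apoe came Sparcl1, a secreted synapse-promoting protein, with 16.54, 16.39, 16.67 and 15.94, and Slc1a3, the glial glutamate transporter of immature brain, with 16.01, 15.86, 15.73 and 15.57. Gfap, the astrocyte intermediate filament, had 12.95, 12.85, 12.74 and 11.12. The values of the first 2 of these genes lay within 0.8 of each other across cultures, whereas Gfap was lower in NO4 than in the other cultures by at least 1.6. Fabp7, a fatty acid binding protein of radial glia, had 15.40 ± 0.19, the water channel Aqp4 13.63 ± 0.68 and Fgfr3, the lowest detected, 8.38 ± 0.34, while Sox9 and Gjb6 were intermediate. All 14 progenitor and proliferation markers were detected. Sox2, a stem cell factor, had 11.97, 11.84, 11.90 and 10.92, and Top2a, an enzyme of dividing cells, 8.83, 9.02, 8.40 and 7.37. The cell cycle genes Cdk1 and Ccnb1 had 10.06 ± 0.39 and 8.73 ± 0.14, and the Notch targets Hes1 and Hes5 were the lowest, with 6.96, 6.38, 6.58 and 6.07 for Hes1.

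Oligodendrocyte (66.7%) and fibroblast (70%) markers were detected about as often as all genes (61.7%), and lower shares of the microglia (40%), endothelial (33.3%), ependymal (42.9%) and other organ (16.7%) markers were detected. Of 15 oligodendrocyte lineage markers, 10 were detected. Olig1, a factor of the lineage, had 14.14, 14.79, 14.16 and 14.46. Its paralog Olig2 had 6.86, 6.47, 8.55 and 7.41, highest in NO3. The myelin gene Mbp had 8.27 ± 0.38 and Mog, the lowest, 6.72 ± 0.13, while Cldn11, Ugt8 and Opalin were not well above background and Pdgfra, which marks precursors, was intermediate. Of 15 microglia markers, 6 were detected, from 9.22 ± 0.37 for the complement gene C1qb to 6.92 ± 0.54 for the adaptor Tyrobp, and Aif1, Itgam, Cx3cr1 and Tmem119 were not well above background. Of 12 endothelial and mural markers, 4 were detected, from 7.84 ± 0.32 for Cspg4 to 6.49 ± 0.21 for Cdh5, and Pecam1, Tie1, Tek, Vwf, Flt1 and Rgs5 were not well above background. Fibroblast and meningeal markers were detected for 7 of 10 genes, from 10.41 ± 0.38 for Fn1, which encodes fibronectin, to 7.26 ± 0.39 for Col3a1. Of 7 ependymal and choroid plexus markers, 3 were detected, with the ciliary factor Foxj1 at 9.82 ± 0.09 and Ttr, the plasma carrier made by choroid plexus, at 8.79, 8.51, 6.80 and 6.62. None of 4 erythrocyte markers was detected, and the haemoglobin gene Hbb was at the floor in all 4 cultures. Of 18 markers of other organs, 3 were detected, the cardiac myosin genes Myh7 and Myh6 at 9.94 ± 0.17 and 9.43 ± 0.13 and the insulin gene Ins1 at 7.11 ± 0.09, while Ckm, Cpa1, Pnlip, Amy2a3, Prl and Umod were not well above background.

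**Figure D3:**
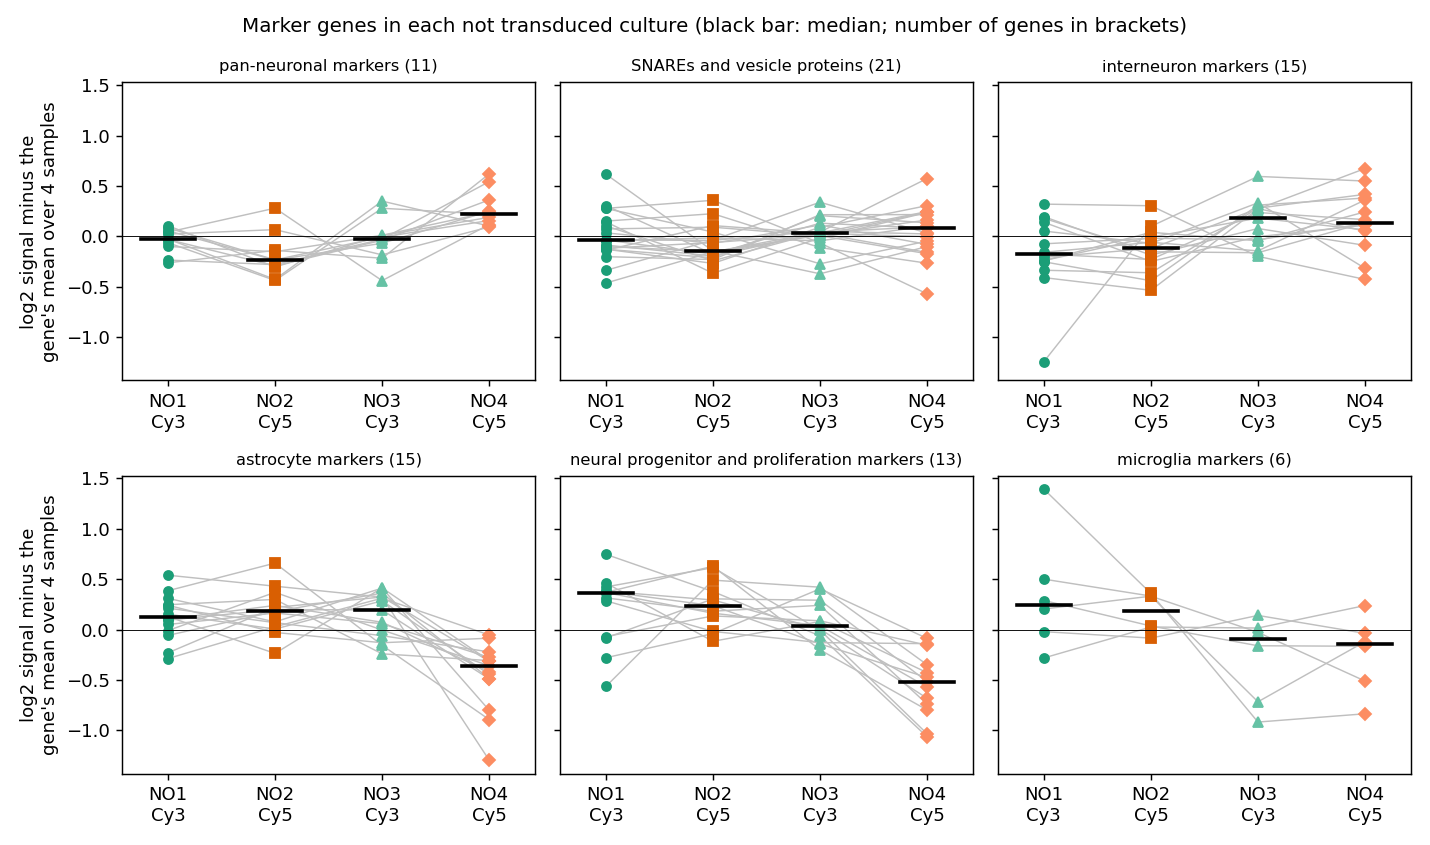
Signal of each detected marker gene minus its own mean over the 4 not transduced cultures (log2), by culture, with grey lines joining a gene's values and black bars for the list's median. Astrocyte and progenitor genes sat lowest in NO4, with medians of -0.36 and -0.52, and pan-neuronal genes sat highest there, with a median of 0.22.

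Marker genes of these cell types differed between cultures in opposite directions, as the plot of marker genes by culture shows. Among genes detected with 4 values, NO4 had the lowest signal for 13 of 15 astrocyte markers and 11 of 13 progenitor and proliferation markers, and it had the highest signal for 8 of 11 pan-neuronal markers and 11 of 17 postsynaptic scaffold genes. Over all 9271 such genes, NO4 was lowest for 31.0% and highest for 26.3%. It was highest for 8 of 21 SNARE and vesicle protein genes and for 2 of 8 active zone genes, whereas NO1 was highest for 6 of these 8. The counts use each gene's brightest probe, and the shares over all genes were not matched for signal. Bright genes of other kinds, such as Ubb, Rps2 and Gapdh, were highest in NO4 too, while Apoe and Cst3 were not. A high signal in NO4 was therefore not particular to neuronal genes. The other detected probes of Snap25, Celf4 and Elavl4 were highest in NO2 or NO3, and that of Elavl2 was lowest in NO4. Only that of Map2 was highest in NO4 as well. NO2 was lowest for 8 of the 11 pan-neuronal markers, against 25.7% of all genes. Microglia markers followed another pattern, with NO4 lowest for 2 of 6 and Csf1r, a receptor that microglia need to survive, at 8.82, 7.78, 6.51 and 6.59. The part of cell composition in the spread of other genes was not tested. NO4 shared its array with NO3 and its dye, Cy5, with NO2, and no other culture had the same pairing. What is particular to NO4 therefore cannot be told apart from that pairing of array and dye.

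Transcription factors of the forebrain were mostly detected and those of more caudal regions mostly were not. Of 15 forebrain transcription factors, 13 were detected, with a median signal of 10.2. Nr2f1, a nuclear receptor of caudal cortex and hippocampus, had 14.41, 14.57, 14.21 and 14.44, and Lhx2, a selector of cortical identity, had 13.58, 13.76, 13.23 and 13.59. Lhx9 was the lowest detected at 6.74 ± 0.17, and Zic1 was not well above background. Of 13 midbrain and hindbrain factors, 3 were detected, namely Pax2 at 9.18 ± 0.14, En1 at 6.80 ± 0.15 and Barhl1 at 6.28 ± 0.12, while En2, Gata2, Gata3, Irx3, Pax8, Phox2a and Fev were not well above background. HOX genes, which pattern the hindbrain, spinal cord and trunk, were detected for 2 of 26 genes, Hoxc8 at 7.14 ± 0.16 and Hoxb7 at 6.73 ± 0.12, and 18 were not well above background, against 23% of all genes. Without NO1, 4 of the 26 were detected.

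Some genes for glutamate and GABA transmission were detected among synthesis enzymes, vesicular transporters and plasma membrane transporters, and others were not. Slc17a7, the vesicular glutamate transporter of mature cortex and hippocampus, had 13.40, 13.60, 13.99 and 13.89. Slc17a6, its paralog, had 10.24, 10.10, 9.71 and 9.92, and Slc32a1, which loads GABA and glycine, had 11.13, 10.94, 11.69 and 11.76. The values of each transporter stayed within 1 log2 unit across cultures. The third glutamate transporter, Slc17a8, was not well above background, and the vesicular transporters for acetylcholine and monoamines were low, with Slc18a3 at 7.49 ± 0.27, Slc18a1 at 7.44 ± 0.07 and Slc18a2 intermediate. Of 18 synthesis and breakdown enzymes, 11 were detected (61.1%, against 61.7% of all genes). The lowest detected was Tph2, an enzyme of serotonin synthesis, at 6.51 ± 0.21. The GABA-synthesizing enzymes Gad1 and Gad2 had 10.64, 11.98, 12.48 and 12.43 and 9.54, 9.41, 10.22 and 10.62. NO1 was lowest for this Gad1 probe, but the other 2 detected Gad1 probes were lowest in NO4, at 8.38 and 7.41. Th, the first enzyme of catecholamine synthesis, had 7.84 ± 0.21, and Chat and Nos1 were not well above background. At the plasma membrane 7 of 14 transporters were detected (50%). Among them the glial glutamate transporter Slc1a2 had 10.83 ± 0.32 and Slc6a11 was lowest at 6.47 ± 0.27. The dopamine transporter Slc6a3 and the GABA transporter Slc6a13 were not well above background.

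**Figure D4:**
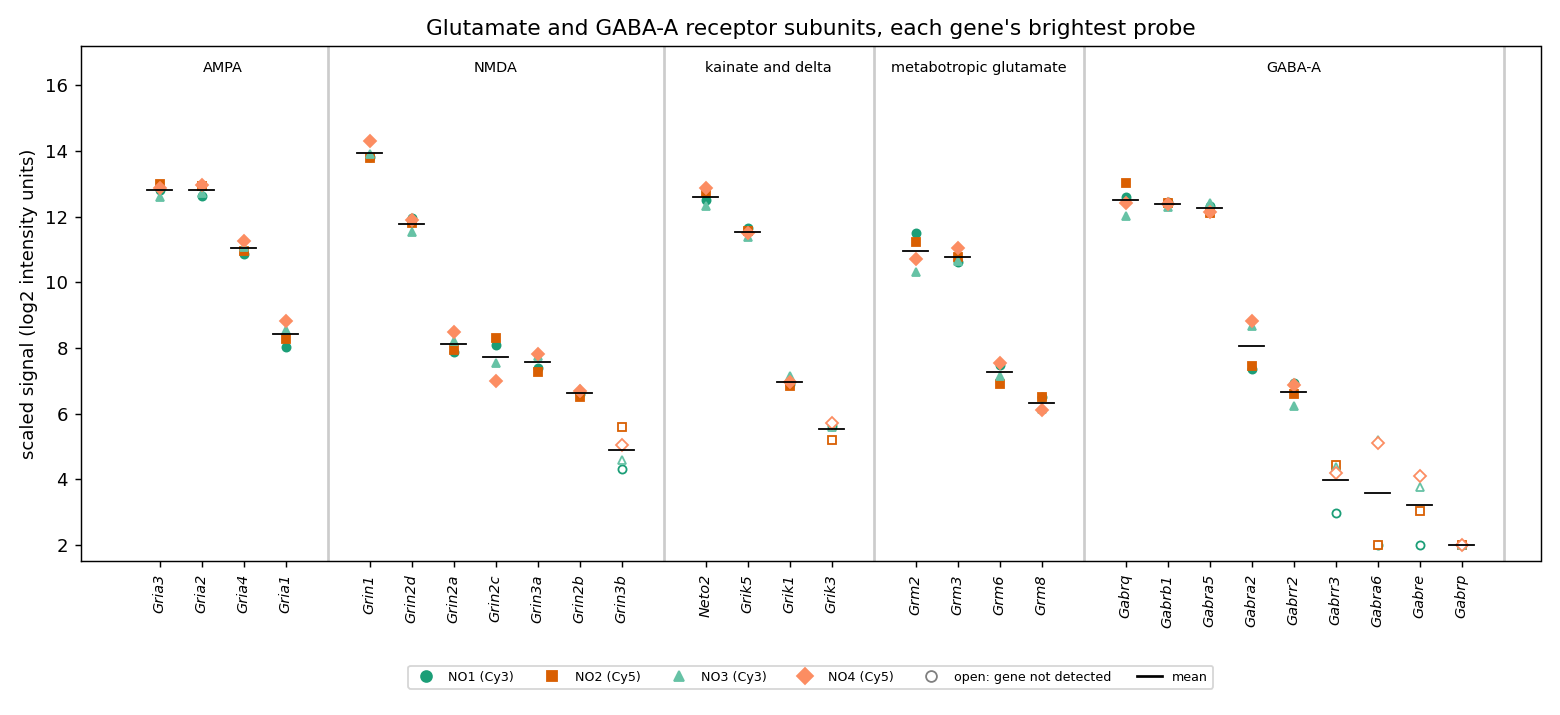
Scaled log2 signal of the brightest probe of each glutamate and GABA-A receptor gene named in the text in the 4 not transduced cultures, ordered by mean within a family, with filled symbols for detected genes. All AMPA and metabotropic genes shown were detected, and the GABA-A genes ran from 12.52 for Gabrq to the floor for Gabrp.

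All 4 AMPA receptor subunits, which carry most fast excitation, were detected. Gria3 had 12.80, 13.01, 12.60 and 12.88, Gria2, the subunit that limits calcium entry, 12.63, 12.92, 12.72 and 12.96, Gria4 10.86, 10.97, 11.08 and 11.25 and Gria1 8.02, 8.28, 8.55 and 8.82. Gria1 and Gria4 were lowest in NO1 and highest in NO4, and the values of each of the 4 genes spanned 0.8 or less. Gria4 had 3 probes, of which 2 were detected and 1 was at the floor. Of 8 genes for auxiliary subunits 6 were detected, from 12.88 ± 0.21 (n = 3) for Cnih2 through 11.71 ± 0.11 for Cacng3 and 11.15 ± 0.20 for Cacng2, or stargazin, to 6.87 ± 0.10 for Cacng7, and Cacng5 was not well above background.

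Of 7 NMDA receptor genes 6 were detected. Grin1, the obligatory subunit, had 13.82, 13.79, 13.91 and 14.29. Grin2d, a subunit known from immature brain and interneurons, had 11.96, 11.80, 11.52 and 11.89. Grin2b, the main partner in embryonic forebrain, had 6.59, 6.52, 6.74 and 6.68 through its only named probe, and Grin2a, known to rise after birth, 7.87, 7.94, 8.21 and 8.50. The 4 values of each gene spanned less than 0.7. Grin2c and Grin3a had 7.74 ± 0.59 and 7.56 ± 0.27, and Grin3b was intermediate. Kainate and delta receptor genes with their partners were detected for 8 of 9, from 12.61 ± 0.24 for Neto2, an auxiliary subunit, and 11.53 ± 0.12 for Grik5 to 6.96 ± 0.13 for Grik1, with Grik3 intermediate. All 8 metabotropic receptors were detected, from 10.94 ± 0.52 for Grm2 and 10.77 ± 0.19 for Grm3 to 6.32 ± 0.21 for Grm8. They included Grm6 at 7.27 ± 0.30, known from retinal bipolar cells, through 1 of 2 probes.

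GABA-A receptors, the chloride channels of fast inhibition, were detected for 13 of 19 subunits (68.4%, against 61.7% of all genes). Gabrq had 12.59, 13.02, 12.03 and 12.43, Gabrb1 12.44, 12.41, 12.28 and 12.38, and Gabra5, the subunit enriched in hippocampus, 12.32, 12.12, 12.42 and 12.13. Gabrq spread over about 1 log2 unit and the others over 0.3 or less. Gabra2 had 7.36, 7.45, 8.66 and 8.83, lower in NO1 and NO2 than in NO3 and NO4. Gabrr2 was the lowest detected at 6.66 ± 0.31. Gabrr3, Gabre and Gabrp were not well above background, and Gabra6, the cerebellar granule cell subunit, was intermediate. Of the GABA-B, glycine receptor and anchoring genes 6 of 8 were detected, with Gabbr2 at 14.03 ± 0.26, Gabbr1 at 12.20 ± 0.56, the anchor Gphn at 11.45 ± 0.27, Glra2, the embryonic glycine receptor subunit, lowest at 10.29 ± 0.24, and Glra3 not well above background. Chloride cotransporters were detected for 5 of 7 genes. Slc12a5, the neuronal chloride exporter whose rise makes GABA inhibitory, had 14.21, 14.14, 14.32 and 14.60. Slc12a2, the importer of immature neurons, had 9.78, 9.46, 9.62 and 9.26. Slc12a5 values varied by less than 0.5 between cultures, but its second probe, described further on, was not well above background.

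Receptors for acetylcholine, monoamines, opioids and purines were detected for some members of each family. The counts, against 61.7% of all genes, were 5 of 16 for nicotinic, 3 of 5 for muscarinic, 5 of 14 for serotonin, 3 of 5 for dopamine, 4 of 9 for adrenergic, 2 of 4 for opioid, and 8 of 16 for adenosine, cannabinoid and purine receptors. Chrna7, the calcium-permeable nicotinic subunit of hippocampal interneurons, had 11.92, 11.62, 12.20 and 11.81, through 1 of 3 probes. Chrm3 had 12.07, 12.02, 11.93 and 12.62. Adora1, the inhibitory adenosine receptor, had 11.87, 11.62, 11.80 and 11.94, and Cnr1, the presynaptic cannabinoid receptor, 11.20, 11.44, 10.98 and 11.61. Each of these 4 genes varied by 0.7 or less between cultures. Among the others, Chrna3 was the lowest detected nicotinic subunit at 6.91 ± 0.07 and Chrm1 the lowest muscarinic receptor at 7.61 ± 0.16, and Chrm2 and Chrm5 were not well above background. Serotonin receptors ran from 8.73 ± 0.08 for Htr7 to 6.99 ± 0.50 for Htr2a, and Htr1a, Htr1b, Htr1d, Htr1f, Htr4 and Htr6 were not well above background. Dopamine receptors ran from 7.16 ± 0.37 for Drd3 to 6.26 ± 0.23 for Drd2, with Drd1 not well above background. The adrenergic receptor genes Adra2a and Adra1d had 10.43 ± 0.17 and 7.94 ± 0.38. Oprl1 and Oprd1 had 10.37 ± 0.19 and 10.07 ± 0.09, Oprm1 was intermediate and Oprk1 not well above background. P2ry1 was the lowest detected purine receptor at 6.46 ± 0.26, and P2ry2, P2rx1, P2rx5 and P2rx7 were not well above background.

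Peptide precursors were mostly detected. Of 22 neuropeptide genes 17 were detected (77.3%, against 61.7% of all genes) and 0 were not well above background (against 23%). Sst, which encodes somatostatin of dendrite-targeting interneurons, had 14.39, 14.68, 14.59 and 14.88, Cck 14.03, 13.75, 14.44 and 14.45 and Npy 12.75, 12.84, 12.76 and 13.26. All 3 lay above 12.7 in every culture. The list ran down to 6.90 ± 0.10 for Avp and held Adcyap1, one of the 5 least variable genes of all, at 9.61, 9.59, 9.59 and 9.57. Pdyn, the opioid precursor of dentate granule cells, Crh, Oxt, Trh and Agrp were intermediate. All 11 granin and peptide processing genes were detected, with a median signal of 13.6, from 16.03 ± 0.07 for Cpe, a carboxypeptidase of secretory granules, to 6.49 ± 0.45 for Pcsk1. Scg2, a granin, had 11.84, 12.10, 12.09 and 11.83, and Vgf, a peptide precursor induced by neurotrophins, 13.89 in NO3 and 14.01 in NO4. Neuropeptide receptors were detected for 13 of 22 genes (59.1%), near the share of all genes. The detected ones ran from 11.87 ± 0.55 for Ntsr2, which astrocytes express, and 11.79 ± 0.17 for Sstr2 to 6.45 ± 0.21 for Vipr2. Npy2r, Npy5r, Galr3, Tacr3, Vipr1 and Adcyap1r1, the receptor of the Adcyap1 peptide, were not well above background. Of 12 neurotrophin genes 10 were detected (83.3%). Ntrk2, the receptor for BDNF, had 14.67, 14.41, 14.57 and 14.90, Ntrk3 13.17, 13.42, 13.63 and 13.90 and Bdnf itself 9.77, 10.16, 9.79 and 9.77. Ntrk3 was lower in NO1 and NO2 than in NO3 and NO4. Ngfr was the lowest detected at 7.26 ± 0.20, and Ntf4 was not well above background.

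In each family of ion channels some paralogs were detected and others were not, and the shares detected, 53.8% to 72.2%, lay around the 61.7% of all genes. Of 13 sodium channel genes 7 were detected. The beta subunit gene Scn3b had 15.03, 15.03, 14.85 and 15.30, Scn2a, the main pore of young axons, 13.06, 13.29, 13.74 and 13.97, and Scn3a, the embryonic pore, 12.24 ± 0.19. Of the 3 detected probes of Scn2a, 2 were lower in NO1 and NO2 than in NO3 and NO4, and 1, with 13.11, 13.26, 12.28 and 12.69, was higher there. Scn1a had 9.49 ± 0.34 (n = 3) and Scn8a, the pore of mature initial segments, was the lowest detected at 6.83 ± 0.28, whereas the muscle pore Scn4a was not well above background and Scn10a and Scn11a of sensory neurons were intermediate. Of 18 calcium channel genes 13 were detected, from 15.61 ± 0.21 for the beta subunit gene Cacnb3 and 15.59 ± 0.30 for Cacna2d1, which encodes the gabapentin receptor, to 6.77 ± 0.15 for Cacnb4. Among the pores Cacna1b, the N-type channel, had 12.76 ± 0.11, Cacna1d 10.12 ± 0.14, Cacna1c 9.59 ± 0.12 and Cacna1a, the P/Q-type channel, 7.28 ± 0.23. Cacna2d2, Cacna2d4 and the retinal Cacna1f were not well above background. Voltage-gated potassium channel genes were detected for 17 of 29, with Kcna1 at 12.60 ± 0.13, Kcnd2, the A-type dendritic channel, at 10.83 ± 0.23 and Kcnip2 lowest at 6.57 ± 0.33. Kcnq1 and Kcnh5 were not well above background. Of 23 other potassium channel genes 16 were detected, from 12.56 ± 0.07 (n = 3) for Kcnmb4 and 11.55 ± 0.15 for Kcnk2 to 6.88 ± 0.67 for Kcnj4, and Kcnj1, Kcnj2, Kcnj5 and Kcnj8 were not well above background. Of 16 HCN and TRP channels 11 were detected, with the pacemaker channel gene Hcn3 at 9.80 ± 0.03, Hcn2 at 7.73 ± 0.18 and Hcn4 lowest at 6.64 ± 0.24.

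Among genes of the synapse, SNARE and vesicle, scaffold and adhesion genes were detected for 83.3% to 85.7% of members, and synaptotagmins (60%) and active zone genes (66.7%) lay near the 61.7% of all genes. Of 28 SNARE and vesicle protein genes 24 were, from Snap25 and 15.40 ± 0.07 for synaptophysin, Syp, to 8.14 ± 0.14 for Cplx1. The vesicle SNARE gene Vamp2 had 15.39, 14.88, 15.23 and 15.48, with another probe at the floor. Syn3 and Vamp1 were intermediate, and Sv2c, a vesicle protein of basal ganglia, was not well above background. Of 15 synaptotagmins 9 were detected. Syt5 had 14.56, 14.53, 14.71 and 14.87 and Syt4, which does not bind calcium in its first domain, 14.64, 14.48, 14.54 and 14.97. Syt1, the fast calcium sensor of forebrain synapses, had 10.14 in NO3 and 10.56 in NO4. The values of Syt5 and of this Syt4 probe each spanned 0.5 or less. Syt8 was the lowest detected at 6.97 ± 0.08, and Syt15 was not well above background. Of 12 active zone genes 8 were detected, from 12.82 ± 0.36 for Rimbp2 to 6.46 ± 0.34 for Unc13c, with Rims3 not well above background. On the postsynaptic side 17 of 20 scaffold and kinase genes were detected. Camk2b had 14.96 ± 0.22 and Camk2a, its paralog that predominates in adult forebrain, 8.97, 8.75, 9.20 and 9.58, with Camk2d intermediate. Shank3 had 13.23 ± 0.12, Shank1 11.45 ± 0.17 and Shank2 10.45 ± 0.35, Dlg4, which encodes PSD-95, 7.96 ± 0.33 and Dlg1, the lowest, 6.78 ± 0.47. Of 12 adhesion genes 10 were detected. Nrxn2 and Nrxn3, presynaptic neurexins, had 15.13 ± 0.34 and 13.78 ± 0.16, and their partners Nlgn1, Nlgn3 and Nlgn2 11.73 ± 0.19, 7.97 ± 0.71 and 6.58 ± 0.28, with Cbln4 not well above background.

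The study concerns c-Jun, so AP-1 and JNK genes were read in these cultures too. Jun, which encodes c-Jun, had 12.08, 12.74, 12.65 and 12.36. Its paralog Jund had 15.26 in NO2, 14.64 in NO3 and 14.57 in NO4 and Junb 9.66, 9.53, 9.72 and 9.37. Fos, their partner, had 10.20, 10.38, 9.31 and 8.65. Fos was higher in NO1 and NO2 than in NO3 and NO4, as was Nr4a1, with 11.17, 11.48, 10.23 and 10.34. Of 17 AP-1 and immediate early genes 15 were detected, with Egr1 at 12.29 ± 0.27, Arc, a regulator of AMPA receptor uptake, at 10.96 ± 0.07 and Fosl2 lowest at 6.39 ± 0.23. Npas4, an activity-dependent factor of neurons, was not well above background. Of 13 JNK pathway genes 12 were detected. The scaffold Mapk8ip1 had 15.68 in NO1 and 16.13 in NO2, and the kinases Mapk9, Mapk10 and Mapk8 had 11.38 ± 0.06 (n = 2), 11.24 ± 0.23 and 9.40 ± 0.57. Mapk8 was detected through 1 of 2 probes, the other being not well above background. Map3k10 was the lowest detected at 8.65 ± 0.26, and Map2k7, a kinase that activates JNK, was not well above background. No probe was matched to Prr7.

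The brightest and dimmest probes of a gene differed more than 2 cultures did. In 2156 genes whose brightest and dimmest mapped probes were both detected, these differed by a median of 1.85. Any 2 cultures differed by a median of 0.18 to 0.287 over detected genes. The measures are not fully alike, since the probes were picked as the extremes of a gene. Of 3963 genes with several probes, 1123 (28.3%) had both detected and undetected probes. Position along the gene went with the difference. In 3751 genes whose probes mapped to different places on one strand, the brightest probe lay downstream of the dimmest in 77.2%. The share was 80.7% in the 383 genes whose brightest probe was detected and whose dimmest was not well above background. It was nearly the same, 79.2%, in the 2156 genes whose brightest and dimmest probes were both detected. The probes of these 383 genes lay a median of 10818 bases apart. The cause of this arrangement was not tested. The dim, upstream probes of 5 synaptic and signalling genes are shown because each would have placed its gene in another class or far lower in the order. They are written 5′ to 3′ with no base in capitals, since no part of them is singled out, and a position wider than 60 bases is the interval given in the array file for a probe that does not map to 1 unbroken stretch.
Grin1 probe, chr3:3471906-3472908 (- strand, rn4): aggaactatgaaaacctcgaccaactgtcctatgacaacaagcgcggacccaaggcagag
Slc12a5 probe, chr3:156033309-156034425 (+ strand, rn4): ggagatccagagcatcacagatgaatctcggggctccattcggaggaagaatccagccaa
Cacna1b probe, chr3:2955905-2955964 (- strand, rn4): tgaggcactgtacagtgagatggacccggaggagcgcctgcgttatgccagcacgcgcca
Shank2 probe, chr1:204851929-204851988 (+ strand, rn4): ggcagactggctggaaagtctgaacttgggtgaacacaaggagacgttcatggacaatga
Oprl1 probe, chr3:170872595-170872654 (+ strand, rn4): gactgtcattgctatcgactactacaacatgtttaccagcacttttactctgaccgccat
The probe shown for Grin1, 18494 bases upstream of the bright one, had 7.88, 7.64, 7.67 and 7.44, against 13.82, 13.79, 13.91 and 14.29 for the bright one, a difference of 6.29 with both detected. The probe shown for Slc12a5, 4012 bases upstream, had 3.58, 3.99, 2.00 and 3.43 and was flagged in 0 cultures, so that it gives only a bound, against 14.21, 14.14, 14.32 and 14.60 for the other probe. The probe shown for Cacna1b lay 82426 bases upstream and was likewise flagged in 0 cultures, against 12.86, 12.70, 12.64 and 12.84 for the bright one. Those for Shank2 and Oprl1 lay 2982 and 1980 bases upstream and were flagged in 0 cultures too, against means of 10.45 ± 0.35 and 10.37 ± 0.19 for the bright ones. All 5 were dimmer than the bright probe in every culture, which follows from their choice as far dimmer probes. The GC content of these probes, 43.3% to 63.3%, was at or above the median of 43.3% over detected probes. Over the whole array the median GC content was 43.3% for detected probes, 45% for intermediate ones and 40% for those not well above background.

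**Figure D5:**
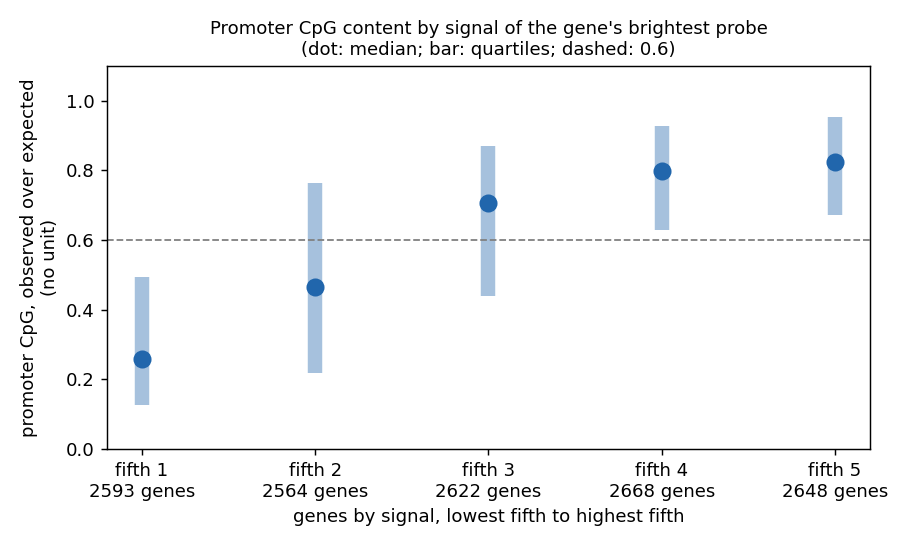
Observed over expected CpG in promoters by quintile of gene signal in the not transduced cultures, with dots for medians and bars for quartiles. The median was 0.26 in the lowest quintile and 0.82 in the highest.

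Promoters of detected genes were richer in CpG, the dinucleotide that is depleted from most of the genome but kept in CpG islands. RefSeq promoters of 300 bases on GRCr8, 250 before and 50 after the start, were matched by symbol for 13095 genes. The median ratio of observed to expected CpG was 0.78 in 8172 detected genes, 0.47 in 1944 intermediate genes and 0.27 in 2979 genes not well above background. The share with a ratio over 0.6 was 73.8%, 40.6% and 20.3% in these classes, as the plot of CpG by signal shows for quintiles of all genes. The letters TATAAA, read on both strands, were in 6.99% of detected promoters and 20.7% of those not well above background. They were in 11% of the promoters of all 13095 measured genes, and in 14.2% of all 33469 promoters in the table, most of which belong to no measured gene. The letters GGGCGG were in 63.2% and 25.8%, against 51.5% of measured genes and 33.1% of the whole table. CCAAT was in 38.3% and 37.9%, against 38% and 37.5%. Lists departed from this rule in both directions. The 13 HOX promoters matched had a median ratio of 0.715, with 2 of 26 HOX genes detected, and the 15 astrocyte promoters had 0.36, with 15 of 17 genes detected. The 10 microglia promoters, with 0.197 and 6 of 15 genes detected, followed the rule. The 250 bases before the start are shown for a pair of bright genes and a pair at the floor, 1 CpG-rich and 1 CpG-poor in each, with every CpG in capitals.
Tubb5 promoter, chr20:2917327-2917576 (+ strand, GRCr8): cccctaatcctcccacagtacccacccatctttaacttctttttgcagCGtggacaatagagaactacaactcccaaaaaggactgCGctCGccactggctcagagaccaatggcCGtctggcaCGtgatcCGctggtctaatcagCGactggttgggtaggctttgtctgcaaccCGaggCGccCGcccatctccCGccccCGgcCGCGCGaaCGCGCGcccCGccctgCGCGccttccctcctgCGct
Apoe promoter, chr1:88485817-88486066 (- strand, GRCr8): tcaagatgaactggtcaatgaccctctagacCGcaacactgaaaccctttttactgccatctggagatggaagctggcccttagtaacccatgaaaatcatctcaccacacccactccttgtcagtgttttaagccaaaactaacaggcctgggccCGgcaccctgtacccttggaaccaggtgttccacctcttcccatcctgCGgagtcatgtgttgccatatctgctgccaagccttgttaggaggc
Hoxa9 promoter, chr4:82657049-82657298 (- strand, GRCr8): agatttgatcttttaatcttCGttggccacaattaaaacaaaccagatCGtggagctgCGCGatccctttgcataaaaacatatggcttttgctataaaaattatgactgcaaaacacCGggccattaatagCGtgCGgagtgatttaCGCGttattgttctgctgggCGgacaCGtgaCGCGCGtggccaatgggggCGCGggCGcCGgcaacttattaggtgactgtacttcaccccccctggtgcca
Hbb promoter, chr1:167663722-167663971 (- strand, GRCr8): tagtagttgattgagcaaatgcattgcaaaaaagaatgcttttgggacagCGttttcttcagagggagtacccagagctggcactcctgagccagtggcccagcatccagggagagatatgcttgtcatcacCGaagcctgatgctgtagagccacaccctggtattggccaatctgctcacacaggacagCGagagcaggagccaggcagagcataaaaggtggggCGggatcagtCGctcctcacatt
Tubb5, at 17.53 ± 0.51, had 22 CpG in these bases and Apoe, at 17.77 ± 0.32, had 3. Hoxa9 had 18 and Hbb 5, and both were at 2.00 in all 4 cultures. Apoe and Hoxa9 thus departed from the pattern over all genes.

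The letters TGACGTCA, the full cyclic AMP response element that CREB family factors bind, were in 3.32% of detected promoters and 1.21% of those not well above background. They were in 2.6% of the promoters of all measured genes and 1.83% of all promoters in the table. The sequence is its own complement, so both strands give the same matches. A pair of genes of the peptide list held it and are shown because both are textbook targets of this pathway in neuroendocrine cells, with the element in capitals.
Scg2 promoter, chr9:88256867-88257116 (- strand, GRCr8): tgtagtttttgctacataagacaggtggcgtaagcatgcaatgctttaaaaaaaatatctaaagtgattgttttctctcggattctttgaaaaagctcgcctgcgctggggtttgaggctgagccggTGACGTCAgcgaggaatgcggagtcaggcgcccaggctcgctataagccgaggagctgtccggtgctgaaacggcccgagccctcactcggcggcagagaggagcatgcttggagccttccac
Vgf promoter, chr12:25277021-25277270 (- strand, GRCr8): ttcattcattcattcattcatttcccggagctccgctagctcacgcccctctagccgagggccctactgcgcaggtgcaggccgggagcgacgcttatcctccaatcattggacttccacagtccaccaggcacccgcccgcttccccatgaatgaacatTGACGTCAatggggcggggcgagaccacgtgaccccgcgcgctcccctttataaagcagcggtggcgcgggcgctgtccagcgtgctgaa
The element began 123 bases before the start of Scg2 and 90 bases before that of Vgf. Scg2 and Vgf were detected at 11.97 ± 0.15 and 13.95 ± 0.08 (n = 2). A match shows only that these letters are present.

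Cultures of the same array differed by a median of 0.18 and 0.205 over detected genes, and cultures of different arrays by 0.218 to 0.287. Of 9271 genes, 2884 were higher and 1816 lower in both NO1 and NO2 than in both NO3 and NO4, against 1041 and 1721 that were higher or lower in both Cy5 than in both Cy3 cultures. The gene with the largest SD was L3hypdh, which encodes a hydroxyproline dehydratase, with 10.43, 9.31, 6.15 and 5.74 and an SD of 2.32. Apba2, an adaptor of synaptic vesicle release also called Mint2, had 8.92, 9.11, 11.79 and 12.41. Abhd18 had 9.77, 8.70, 6.96 and 6.85. In all 3 the cultures of an array lay together. Apba2 was lower in NO1 and NO2, and the other 2 were higher. Sncaip, whose product binds alpha-synuclein, had 9.24, 9.46, 7.17 and 6.86, and Slc6a21, Pmel, Fam120a, Tead2 and Gca, with SDs from 1.19 to 1.30, were likewise higher in both NO1 and NO2. Eml2 was the exception among these 10, with 10.72, 11.40, 13.08 and 10.39. The 5 genes with the smallest SD, 0.01 to 0.02, were Atmin at 8.49, 8.48, 8.50 and 8.50, C1h10orf88, Pgam2, Lgals9 and Adcyap1. Among the lists, the progenitor markers were higher in both NO1 and NO2 for 7 of 13 genes and lower for 0, and the voltage-gated potassium channels were lower there for 9 of 16 and higher for 0, against 31.1% and 19.6% of all genes.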

How the data were processed

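Total RNA of 4 not transduced cultures was labelled in 2 colours and scanned on 2 Agilent arrays. The intensity values are the mean and local background signals of each spot as deposited by the authors, made by Agilent Feature Extraction 10.7.3.1 per the file headers. The authors' deposited series matrix holds log2 values for part of the spots. They matched log2 of the median signal minus the median local background in the scanner files with a slope of 1, centred on a column median of 0 (within rounding) in each culture. Its other 12 sample columns were not used. The labels do not say that the 4 cultures came from separate animals, beyond the design's word for replicates.

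Background-subtracted signal in the culture's own dye was scaled to a common 75th percentile, floored at 4 units and put on the log2 scale. Spots marked as outliers were left out, and a probe needed 2 or more values. No spot was saturated. Of 41012 probes, 21073 were named through RefSeq accessions, symbols and synonyms, 215 matched several genes and 19724 matched none, leaving 16083 genes. Probe positions are those of rn4, per the file headers, with the order of start and end taken as the strand. The number of arrays limits the precision.

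The members and the 54 gene lists, of which 688 of 725 genes were measured, were chosen with earlier results of these data known. Named are the 20 brightest genes, list members with emphasis on the highest, the lowest detected and those whose probes disagree, the 10 most and 5 least variable detected genes, and Jun. Some members of the lists are counted but not reported by name here. There was 1 group and no comparison between groups, and the only test was Dixon's, for 1 culture that stands apart in a named gene. The detection and scaling steps were tested on simulated data. The simulated probes were clearly present or absent, with the same flag limit in every sample, so calls near the limits of each dye were not tested. Alternatives changed the detection rule, dye, background method, scaling, floor, probe choice and samples. Python 3.11.15, pandas 2.3.3, numpy 2.4.6, matplotlib 3.10.9, R 4.3.3 and limma 3.58.1 were used.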

Additional observations from a re-analysis of the deposited data

Results flagged for a closer look

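Of 219 named genes with 4 values and detected by the probe used, 8 had 1 culture that stood apart from the other 3. Its gap to the nearest neighbour, over the range of the values, exceeded Dixon's critical value for 4 samples. Chance alone flags about 1 in 20 groups, and 8 of 219 is a smaller share than that. The flags were not counted over all detected genes, so the genes below are listed as values only. Values are those of a gene's brightest probe. NO4 was the culture apart in 6 of them. Gfap had 11.12 in NO4, against 12.74 to 12.95 in the others, and Sox2 had 10.92 in NO4, against 11.84 to 11.97, so an astrocyte and a progenitor gene were low there. Nrxn2, a neurexin, had 15.63 in NO4, against 14.90 to 15.01. Dlg4, which encodes PSD-95, had 8.44 in NO4, against 7.73 to 7.83. Ywhae, a 14-3-3 protein, had 17.54 in NO4, against 16.99 to 17.03, and Avp, which encodes vasopressin, 7.06 in NO4, against 6.85 to 6.86. Bdnf stood apart in NO2, with 10.16 against 9.77 to 9.79. Kcnip2, a potassium channel partner, stood apart in NO3, with 7.06 against 6.37 to 6.44.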

How the results depend on the processing

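No paired analysis was possible because 1 group was described and no groups were compared. Detected genes numbered 9930, and 9789 to 10211 when each culture was left out. Detected probes numbered 20112, and 19722 to 20914. Genes not well above background numbered 3707, and 3708 to 4171. Under a threshold of the mean plus 3 SD of the negative control spots they numbered 1687, and detected genes 11633. That threshold was met by more probes, 24992, and its cause was not tested further. The Cy3 cultures alone gave 9579 detected genes and the Cy5 cultures 11403. Alternatives chosen after seeing the data gave 9516 (outlier spots counted as not above background), 9895 (the array of NO1 and NO2) and 10207 (that of NO3 and NO4). Counts within the gene lists moved by more than 1.5 times in 7 of 54 lists under the negative control threshold, in 6 with the Cy5 cultures alone and in 1, the HOX genes, without NO1 (4 detected, against 2). Median percentiles of the lists moved beyond the spread between cultures in 40 of 54 lists with the authors' matrix, 34 with the median of a gene's probes, 16 with the processed signal and 0 without scaling or with quantile scaling. Leaving out 1 culture moved 2 to 10 of them. The percentiles of named genes moved likewise in 215 of 267 genes with the authors' matrix, by up to 22.9, and in 179 of 333 with the median of a gene's probes, by up to 66.2. Weak probes are limited by signal over background, and the lowest signal flagged was lower in the Cy5 than in the Cy3 cultures.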

Other observations

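Families of related names, chosen after values were seen, differed in the share detected, which was 61.7% over all genes. Grouping used only the first letters of the names on the array. A group can therefore hold related genes of another function and miss members, such as Rplp1. All 86 names of the ribosomal protein type, Rpl or Rps with a digit, were detected, with a median signal of 15.3. So were 38 of 39 names of the proteasome type (13.3) and 37 of 38 of the respiratory complex I type (13.9). The vacuolar ATPase, the proton pump that energises synaptic vesicles, had 15 of 22 names detected. Cytochromes P450 had 22 of 71 detected, led by Cyp51, an enzyme of cholesterol synthesis, at 13.52. Keratins had 4 of 33 detected.

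Chemoreceptor families were mostly not detected. Olfactory receptors had 94 of 1111 names detected (8.46%) and a median signal of 2.90, against 61.7% and 8.01 over all genes. Family counts, here and above, take a name's brightest probe and include probes without a matched symbol. Of all probes without a symbol 36% were detected, so the share over all genes is not a like baseline. Vomeronasal receptors had 4 of 53 detected and taste receptors 0 of 15. A few olfactory receptor probes were bright, among them those of Olr776 at 12.63, Olr309 at 12.37 and Olr1439 at 11.98. Whether these signals came from the named transcripts was not tested.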
